A study of Mus musculus with 2 samples.

Results

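The genes described here are 9 genes of the red blood cells that circulate in the early embryo: the embryonic globins *Hbb-y*, *Hbb-bh1* and *Hba-x*, the adult-type globins *Hba-a1* and *Hbb-b1*, the heme synthesis gene *Alas2*, the globin chaperone gene *Ahsp* and the transcription factor genes *Klf1* and *Gata1*. They were chosen by name, and all 9 were found among the 37071 gene names of the array, with 12 probes in all. All 9 were well above background in each channel of each array. A gene was tested when its processed signal was above 200 and its signal-to-noise ratio at least 5 in each channel of each array, and 6 of the 9 genes were among the 10600 genes tested. *Hbb-b1*, *Klf1* and *Gata1* were not, so counts over the 6 do not speak for all 9.

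RNA of E10.5 brains was hybridized to 2 arrays, each with 1 wild type sample (strain label C57BL/6, Cy3) and 1 *Plzf* lu/lu sample (strain label luxoid, Cy5). The methods name forebrain and midbrain as the tissue. The dyes were not exchanged, so dye and genotype cannot be told apart, and neither can genotype and strain label. The labels call the arrays biological replicates without giving the number of embryos behind each, and p-values measure only the spread between these samples.

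Red cells of the first wave are made in the yolk sac and enter the circulation as large nucleated cells that still carry RNA, and they reach every vessel of the embryo, those of the head included. Each hemoglobin joins alpha-like chains (*Hba-x*, *Hba-a1*, *Hba-a2*) with beta-like chains (*Hbb-y*, *Hbb-bh1* and the adult genes) around heme, and the embryonic genes of both clusters give way to the adult ones as development goes on. *Gata1* and *Klf1* encode factors that bind the control elements of these genes, *Alas2* encodes the first enzyme of heme synthesis in red cells, and *Ahsp* encodes a protein that holds free alpha chains.

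The wild type sample of array 1 stood apart from the other 3 samples before any comparison of genotypes. Each of the 9 genes had its highest signal there. In that channel 36801 of the 59168 gene spots kept were well above background, against 43409 in the *Plzf* lu/lu channel of array 1, and 43975 and 44192 of 59179 in the wild type and *Plzf* lu/lu channels of array 2. The median signal of the genes tested was nearly level, at 1039 and 1064 on array 1 and 1020 and 1029 on array 2, for wild type and *Plzf* lu/lu in turn. The mutated gene, *Zbtb16*, had signals of 433 in wild type and 172 in *Plzf* lu/lu on array 1, and 546 and 211 on array 2.

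The embryonic beta-like gene *Hbb-y* had a processed signal of 146806 in wild type and 84558 in *Plzf* lu/lu on array 1, and of 56549 in wild type and 81173 in *Plzf* lu/lu on array 2. The genotypes overlapped, with the wild type samples as the highest and the lowest of the 4 and the *Plzf* lu/lu samples close together between them. *Hbb-bh1*, the other embryonic beta-like gene, had 129706 and 72194 on array 1 and 71246 and 77450 on array 2, in the same order of genotypes. Here 3 samples lay close together and the wild type sample of array 1 above them. A second, dim *Hbb-bh1* probe had signals of 135.0, 75.2, 72.7 and 55.9. *Hba-x*, the embryonic alpha-like gene, had 64597 in wild type and 26362 in *Plzf* lu/lu on array 1, and 18101 and 18428 on array 2. For *Hba-x* both samples of array 1 were above both samples of array 2.

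**Figure D1:**
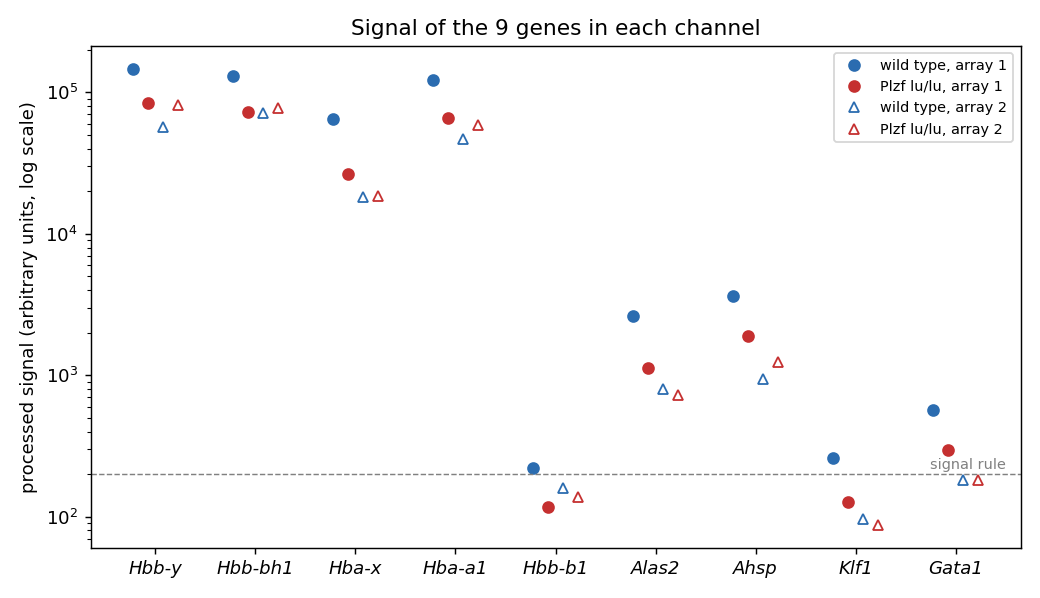
Processed signal (arbitrary units, log scale) of the 9 genes, each at its brightest probe, in wild type (blue) and *Plzf* lu/lu (red) on array 1 (filled circles) and array 2 (open triangles); the dashed line is the signal minimum of 200. Each point is 1 sample, without error bars, and the wild type sample of array 1 is the highest for every gene, as with *Hba-x* at 64597 against 18101 to 26362.

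Among the adult-type globins, the alpha gene *Hba-a1* had signals of 121932 in wild type and 65525 in *Plzf* lu/lu on array 1, and 47124 and 59073 on array 2. This is the order of *Hbb-y*: wild type of array 1 highest, wild type of array 2 lowest. *Hba-a1* was printed as 10 spots for each of 2 probes, which gives a measure of the spread within an array. Over the 10 spots of the brighter probe, the log2 ratio (*Plzf* lu/lu over wild type) was -0.90 with an SD of 0.033 on array 1 and 0.33 with an SD of 0.055 on array 2. The second probe gave -1.60 (SD 0.044) on array 1 and -0.06 (SD 0.038) on array 2, so the 2 probes of this gene differed from each other by more than their spots did. Its signals were 70113 and 23139 on array 1 and 18035 and 17350 on array 2.

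The beta gene *Hbb-b1* had signals of 222.5 and 116.4 on array 1 and 160.5 and 138.3 on array 2, near the signal minimum in each sample. Its probe shares a run of 46 of its 60 bases with the RefSeq promoter entry of *Hbb-bs*, an adult beta-globin gene of C57BL/6J for which the array has no gene name. Which adult beta transcript this probe reads was not tested, and its low signal is no measure of adult beta-globin RNA.

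*Alas2* had signals of 2606 in wild type and 1134 in *Plzf* lu/lu on array 1, and 806 and 727 on array 2. *Ahsp* had 3629 and 1905 on array 1 and 941 and 1239 on array 2. For both genes the samples of array 1 were above those of array 2 in either genotype. The erythroid factor gene *Klf1* had 258.8 and 126.5 on array 1 and 95.7 and 87.6 on array 2, and its second probe 230.3, 107.1, 82.3 and 77.2 in the same order. *Gata1* had 564.7 and 298.1 on array 1 and 180.4 and 183.2 on array 2. For all 4 of these genes, as for *Hba-x*, both samples of array 1 were above both samples of array 2.

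Expressed as *Plzf* lu/lu over wild type, the 2 arrays gave opposite or unequal answers. On array 1 the 9 genes had log2 ratios from -1.29 (*Hba-x*) to -0.80 (*Hbb-y*), with a median of -0.93, and all 9 lay below the inverse of 1.3. On array 2 they ran from -0.21 (*Hbb-b1*) to 0.52 (*Hbb-y*), with a median of 0.03. Among the 6 genes tested, 6 were lower beyond 1.3-fold on array 1, where 5.58% of the 10600 genes were, and among the 23283 genes well above background, the set that holds all 9, the share was 9.67%. Higher beyond 1.3-fold on array 2 were *Hbb-y* and *Ahsp*, 2 of 6, against a background of 4.5%. With normexp correction and median centring in place of the dye normalization, 4 of the 6 were lower on array 1 and 4 higher on array 2 (7.04% and 6.92% of all genes tested under that setting), and with normexp and loess 6 and 3 (4.84% and 4.72%). Beyond 1.3-fold in 1 direction on both arrays there were 0 of the 6, against 3.32% of all genes tested. In bulk tissue, fewer red cells and less RNA per red cell cannot be told apart in any of these values.

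The mean of the 2 arrays fell short of significance for each gene tested. *Alas2* had a mean log2 ratio of -0.67 ± 0.23 (SE, limma adjusted p = 0.142), lower on both arrays, and *Hba-x* of -0.63 ± 0.29 (limma adjusted p = 0.217), lower on array 1. For *Hbb-bh1* the mean was -0.36 ± 0.22 (limma adjusted p = 0.321), for *Hba-a1* -0.29 ± 0.27 (limma adjusted p = 0.513), for *Ahsp* -0.27 ± 0.29 (limma adjusted p = 0.573) and for *Hbb-y* -0.14 ± 0.29 (limma adjusted p = 0.778), each lower on 1 of 2 arrays. At an adjusted p under 0.05 limma called 0 of the 6 genes and 0.0283% of all genes tested. At an unadjusted p under 0.05 it called 1 of the 6, *Alas2*, against 27.8% of all genes tested. The median of the 6 means was -0.32, and that of all genes tested 0.0067. It was -0.91 from array 1 alone and 0.22 from array 2 alone, so its sign rests on array 1, and it was -0.05 with normexp and median centring. The sign of the mean of *Hbb-y*, *Hbb-bh1* and *Hba-a1* turned when median centring of normexp-corrected signals replaced the dye normalization, to 0.34, 0.16 and 0.18.

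The samples of 1 genotype were then set against each other, which compares channels of the same dye. Each channel was centred on its median over the genes tested, and there is 1 sample on each side, so these are values without a test. In wild type, array 1 was above array 2 for each of the 9 genes, from 1.36-fold for *Hbb-b1* and 1.79-fold for *Hbb-bh1* to 3.50-fold for *Hba-x* and 3.78-fold for *Ahsp*. All 6 genes tested were beyond 1.3-fold here, against 2.09% of the genes tested, and all 9 against 5.35% of the genes well above background. The median of the 9 was 2.65-fold, and that of all genes tested 0.989-fold. In *Plzf* lu/lu the same quotient ran from 0.814-fold for *Hbb-b1* to 1.57-fold for *Gata1*, and 3 of the 6 genes tested were above 1.3-fold (*Hba-x*, *Alas2* and *Ahsp*), against 0.915% of the genes tested. Of all 9 genes 5 were above 1.3-fold, against 1.92% of the genes well above background. *Alas2*, *Ahsp*, *Klf1* and *Gata1* lay between 1.40-fold and 1.57-fold. Of the globins, *Hba-x* was next to them at 1.38-fold, *Hba-a1* was at 1.07-fold (1.29-fold with its second probe), *Hbb-y* at 1.01-fold and *Hbb-bh1* at 0.901-fold.

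**Figure D2:**
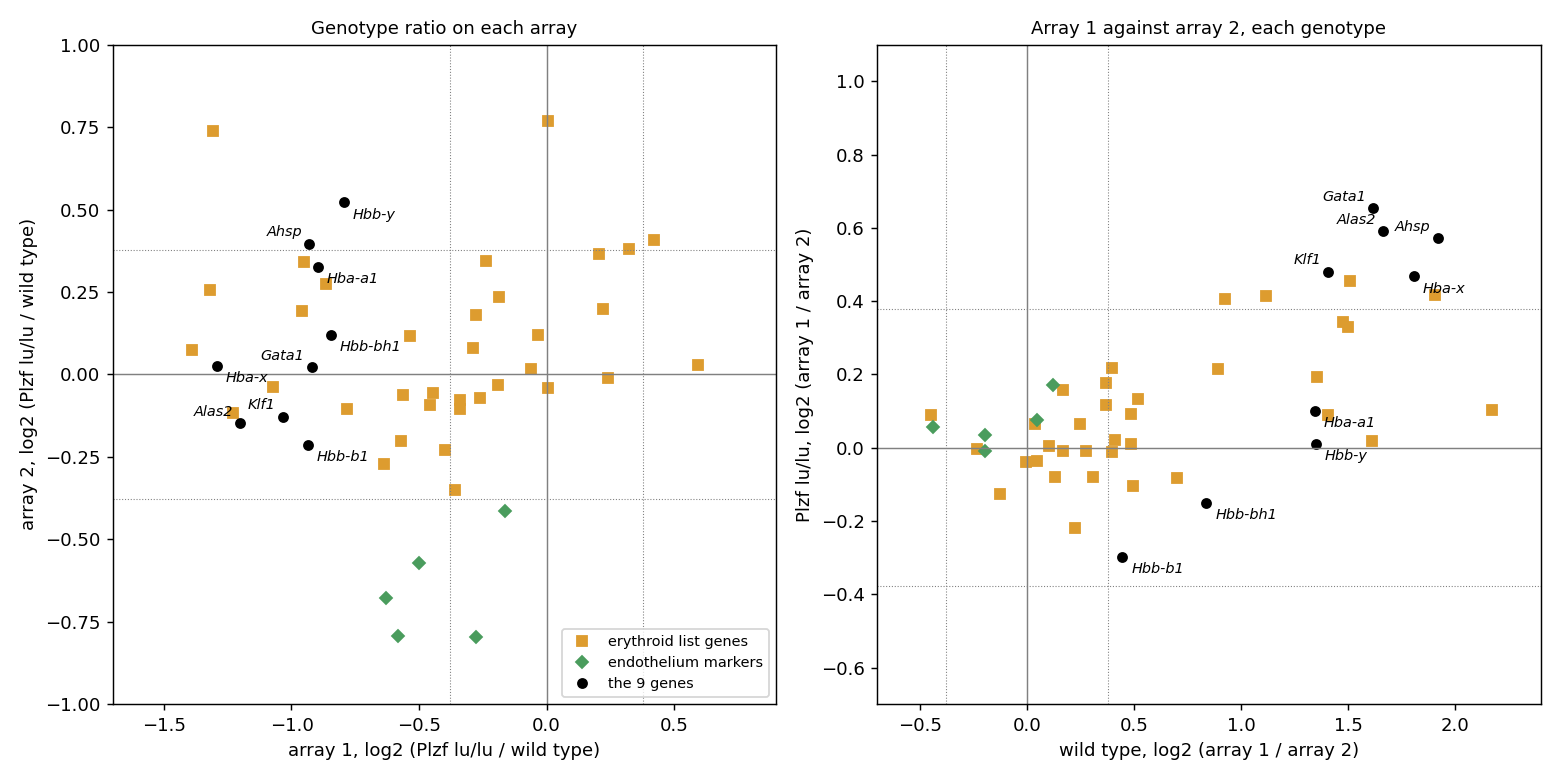
Left, log2 ratio (*Plzf* lu/lu over wild type) on array 1 (horizontal) and array 2 (vertical); right, log2 quotient of array 1 to array 2 in wild type (horizontal) and *Plzf* lu/lu (vertical), each channel centred on its median over the genes tested, with dotted lines at 1.3-fold. Points are the 9 genes (black circles), the tested genes of the erythroid lists (squares) and the tested endothelium markers (diamonds), and the 9 genes lie at -0.80 or below on the array 1 axis and at 0.44 or above on the wild type axis.

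Ordered by the quotient of array 1 to array 2 in wild type, *Ahsp* was at place 3, *Hba-x* at 5, *Alas2* at 8, *Hbb-y* at 19, *Hba-a1* at 20 and *Hbb-bh1* at 48 of the 10600 genes tested. Place 1 was taken by the adult beta-globin gene *Hbb-bt*, with signals of 16629 and 3621 in wild type on arrays 1 and 2. Of the first 20 genes, 5 were among the 9 genes and 14, those 5 included, were in 1 of the gene lists used here. For comparison, the 10600 genes tested held 6 of the 9 genes and 35 genes of the other red cell lists. The marker lists held 1 to 9 tested genes each. All lists were chosen with earlier results of these data known. The other 6, named after their values were seen, were *Acp5*, *Foxf1*, *Smim1*, *Cited4*, *BI657997* and an unnamed transcript of chromosome 2. In *Plzf* lu/lu the order was another one, with *Alas2* at place 16, *Ahsp* at 17 and *Hba-x* at 41, and *Hba-a1* at 1815, *Hbb-y* at 4444 and *Hbb-bh1* at 9136.

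The 9 genes together took 0.928% of the summed signal of all genes in wild type and 0.488% in *Plzf* lu/lu on array 1, and 0.384% in wild type and 0.468% in *Plzf* lu/lu on array 2. Signals of different probes are not on 1 scale, so only the comparison between channels is read. The wild type share on array 1 was 2.42 times that on array 2, and the *Plzf* lu/lu share 1.04 times. Within array 1 wild type had 1.90 times the share of *Plzf* lu/lu, and within array 2 *Plzf* lu/lu had 1.22 times the share of wild type. For the 5 globins alone the shares were 0.914% and 0.482% on array 1 and 0.380% and 0.463% on array 2. The 4 non-globin genes took 0.0139%, 0.00671%, 0.00398% and 0.00439% in the same order, so that in *Plzf* lu/lu they too were higher on array 1.

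**Figure D3:**
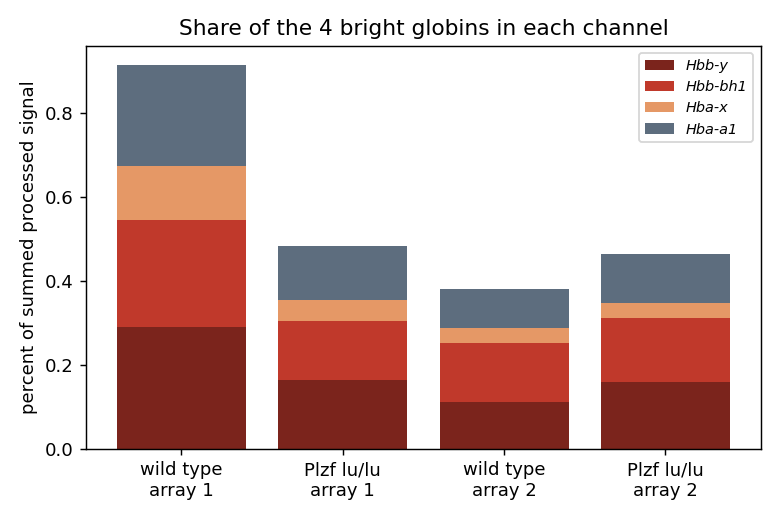
Stacked bars show the percent of the summed processed signal of all genes that *Hbb-y*, *Hbb-bh1*, *Hba-x* and *Hba-a1* took in each of the 4 samples; *Hbb-b1*, at under 0.001%, is not drawn. Each bar is 1 sample without error bars, and with *Hbb-b1* the bars come to 0.914%, 0.482%, 0.380% and 0.463%.

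Embryonic and adult-type globins were compared within each sample. The log2 quotient of the summed signals of *Hbb-y*, *Hbb-bh1* and *Hba-x* to those of *Hba-a1* and *Hbb-b1* was 1.48 in wild type and 1.48 in *Plzf* lu/lu on array 1, and 1.63 and 1.58 on array 2. Its level depends on the probes, and its range over the 4 samples was 0.15, with the adult side almost wholly the brighter *Hba-a1* probe. When all probes of each gene were summed, the range was 0.38 and *Plzf* lu/lu exceeded wild type by 0.22 on array 1 and 0.05 on array 2, in place of differences of -0.0014 and -0.05. Within the alpha cluster, the log2 quotient of *Hba-x* to *Hba-a1* differed between the genotypes (*Plzf* lu/lu less wild type) by -0.40 on array 1 and -0.30 on array 2, with a range of 0.76 over the samples. With the second *Hba-a1* probe these differences were 0.31 and 0.08, so their direction was set by the choice of probe. Within the beta cluster, the quotient of *Hbb-y* to *Hbb-bh1* was higher in *Plzf* lu/lu by 0.05 on array 1 and 0.40 on array 2, and that of *Hbb-y* to *Hbb-bt* differed by 0.51 on array 1 and -0.22 on array 2, with a range of 0.82.

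The genes whose profile over the 4 samples was nearest to the mean of the 3 embryonic globins were sought by Euclidean distance of centred log2 signals. The 10597 genes tested other than those 3 were ranked. *Hba-a2* was nearest, at a distance of 0.090, and *Hba-a1* was next, at 0.093. These are hardly 2 measurements, because the *Hba-a2* probe shares 59 of its 60 bases with the brighter *Hba-a1* probe. *Slc25a37*, which encodes the mitochondrial iron importer mitoferrin, followed at 0.103, with signals of 2869 and 1574 on array 1 and 1100 and 1332 on array 2 in wild type and *Plzf* lu/lu. Then came *Car2* (carbonic anhydrase) at 0.196, *Mgst3* at 0.227, *Rnf10* at 0.231, *Ptp4a3* at 0.242, *Lyl1*, a hematopoietic transcription factor gene, at 0.252, *Hbb-b2* at 0.261, an unnamed transcript of chromosome 1 at 0.272 and *Cpox*, an enzyme of heme synthesis, at 0.273. *Alas2* stood at place 42 with 0.511 and *Ahsp* at place 51 with 0.541. Each of these genes had its highest signal in the wild type sample of array 1, and with 4 samples a profile holds little beyond that.

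The other genes of red cells were read from 6 lists with 64 genes on the array, all of them well above background and 35 tested. On array 1, 16 of the 35 were lower in *Plzf* lu/lu beyond 1.3-fold (5.58% of all genes tested) and 2 were higher (8.25%). On array 2, 0 were lower (1.96%) and 4 were higher (4.5%). On both arrays 0 of the 35 were lower (0.736%) and 1, *Dmtn*, was higher (2.58%), with log2 ratios of 0.42 and 0.41. Over the 35 the median log2 ratio was -0.34 on array 1 and 0.029 on array 2, and over all genes tested 0.0195 and -0.0047. At an adjusted p under 0.05 limma called 0 of the 35, the lowest being *Dmtn* (limma adjusted p = 0.0577), and 12 at an unadjusted p under 0.05, where it called 27.8% of all genes tested. In wild type, array 1 was above array 2 beyond 1.3-fold for 19 of the 35 (2.09% of all genes tested), and in *Plzf* lu/lu for 4 (0.915%).

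Of the other globin genes, 6 of 6 were well above background and 3 were tested, all 3 lower beyond 1.3-fold on array 1 (5.58% of all genes tested). *Hbb-bt* had signals of 16629 and 6714 on array 1 and 3621 and 6044 on array 2, and thus log2 ratios of -1.31 and 0.74. *Hba-a2* had -0.95 and 0.34, and *Hbb-b2* -1.32 and 0.26. The probes named for the adult genes *Hbb-bt* and *Hbb-b2* therefore followed the embryonic genes in which sample was highest. Which adult beta transcripts these probes read in either strain label was not tested.

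The 7 enzymes of heme synthesis that act after *Alas2* were all tested, and 5 were lower beyond 1.3-fold on array 1 (5.58% of all genes tested), with a median log2 ratio of -0.54 there and of -0.11 on array 2. These enzymes work in every cell that makes heme. *Urod* had log2 ratios of -0.34 and -0.11, and *Alad* -0.40 and -0.23. No enzyme passed the adjusted threshold in limma, and 5 had an unadjusted p under 0.05 (27.8% of all genes tested). Of the 8 genes of iron uptake and storage 5 were tested, and 1, *Slc25a37*, was lower on array 1 beyond 1.3-fold (5.58%). The ferritin chains *Ftl1* (-0.03 and 0.12) and *Fth1* (-0.19 and -0.03) and the sorting nexin gene *Snx3* (0.0074 and -0.04) lay near 0 on the log2 scale.

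For the red cell membrane and cytoskeleton, 5 of 16 genes were tested, with median log2 ratios of 0.32 on array 1 and 0.18 on array 2. Over all 16, which were well above background, the medians were -0.64 and 0.13, and 10 of 16 were lower on array 1 beyond 1.3-fold (9.67% of the genes well above background) and 7 higher on array 2 (6.5%). Lower on both arrays were 2 (2.07%), *Rhag* (-1.78 and -0.64) and *Epb4.2* (-1.30 and -0.61), which are named after their values were seen. They are also the 2 found over all 64 genes of the 6 lists. Both genes were dim, under the signal minimum in each sample, and were not tested. *Rhag* had signals of 75.3 in wild type and 21.9 in *Plzf* lu/lu on array 1, and 22.6 and 14.5 on array 2. *Epb4.2* had 76.8 and 31.2 on array 1, and 24.4 and 16.0 on array 2. The tested genes included those that other cells of the brain also use. The anion exchanger gene *Slc4a1* had signals of 2909 and 1109 on array 1 and 762 and 803 on array 2. The glucose transporter gene *Slc2a1* had log2 ratios of 0.59 and 0.03, and *Epb4.1*, a gene of the membrane skeleton, 0.32 and 0.38. Of 12 red cell enzymes 8 were tested and 3 were lower on array 1 beyond 1.3-fold (5.58% of all genes tested), with a median of -0.30 there and 0.0033 on array 2. *Prdx2* (-0.06 and 0.02), *Gpx1* (-0.46 and -0.09) and *Bnip3l* (0.22 and 0.20) were the brightest. Of 15 erythroid transcription factors and receptors 7 were tested and 3 were lower on array 1 beyond 1.3-fold (again 5.58%), with medians of -0.34 and -0.04. *Ldb1* had -0.34 and -0.08, the Gata1 cofactor gene *Zfpm1* -0.56 and -0.06, and *E2f2* -0.19 and 0.23.

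Markers of other cells that the tissue could hold were set beside these values. Megakaryocyte and platelet genes moved with the 9 genes on array 1. All 7 were well above background, and their summed signal was 4005 in wild type and 1639 in *Plzf* lu/lu on array 1, and 1257 and 960 on array 2. *Pf4*, the brightest and the 1 tested, had 3126 and 1236 on array 1 and 979 and 725 on array 2, a log2 ratio of -1.34 and -0.43 (limma adjusted p = 0.081). It was thus beyond 1.3-fold on both arrays, which none of the 6 tested genes was. In wild type, 6 of the 7 were above 1.3-fold on array 1 against array 2 (5.35% of the genes well above background), and in *Plzf* lu/lu also 6 (1.92%).

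Macrophage markers, 9 of 9 well above background, summed to 3718 and 3013 on array 1 and 2965 and 2898 on array 2. In wild type, 7 of the 9 were above 1.3-fold on array 1 against array 2 (5.35% of the genes well above background), with a median log2 quotient of 0.56, and in *Plzf* lu/lu 1 was (1.92%). *Ptprc*, the brightest, went the other way in wild type, at 0.759-fold, which lowers the difference between the sums. Of the 4 tested, 1 was lower on array 1 beyond 1.3-fold (*Csf1r*, -0.57 and -0.23; 5.58% of all genes tested), while *Ptprc* had -0.12 and -0.14 and *Lyz2* -0.20 and 0.44. Endothelial markers, which line the vessels that carry these cells, had another pattern. All 12 were well above background, with sums of 6256 and 5130 on array 1 and 6885 and 4739 on array 2, so that both wild type samples exceeded both *Plzf* lu/lu samples. Of the 5 tested, 3 were lower beyond 1.3-fold on both arrays (0.736% of all genes tested), with medians of -0.50 and -0.68, and 0 passed the adjusted threshold in limma (lowest limma adjusted p = 0.051, with 5 of 5 at an unadjusted p under 0.05, as were 27.8% of all genes tested). *Egfl7* had -0.16 and -0.41, *Icam2* -0.50 and -0.57 and *Emcn* -0.63 and -0.68. In wild type, 0 of these 5 were above 1.3-fold on array 1 against array 2 (2.09% of all genes tested).

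Neuroepithelial markers of forebrain and midbrain, 9 of 10 well above background, summed to 14493 and 16073 on array 1 and 11905 and 17731 on array 2, with *Nes* the brightest. *En1*, a marker of the midbrain and hindbrain border, was not well above background in all 4 channels. Of the 9 tested, 4 were higher in *Plzf* lu/lu beyond 1.3-fold on array 1 and 8 on array 2, with 4 on both, against 8.25%, 4.5% and 2.58% of all genes tested. *Nes* had -0.08 and 0.44, *Otx2* 0.38 and 0.39 and *Lhx2* -0.18 and 0.86. Of 6 markers of yolk sac endoderm, 3 were well above background, and *Afp*, *Apoa1* and *Apob* were not. The sums over all 6 were 924 and 782 on array 1 and 874 and 790 on array 2, and the brightest, *Apoa2*, had log2 ratios of -0.23 and -0.19. The part of blood content, of platelets and of the extent of dissection in the values of the 9 genes was not tested.

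Probe positions in build mm9 are given for 8 of the 9 genes, since the *Ahsp* probe was unmapped. The beta-like genes are on chromosome 7, with *Hbb-y* at chr7:111000448-111000507, *Hbb-bh1* at chr7:110990209-110990268 and *Hbb-b1* at chr7:110976379-110976438, all on the minus strand. The alpha-like genes are on chromosome 11, with *Hba-x* at chr11:32177668-32177727 and *Hba-a1* at chr11:32184427-32184486, both on the plus strand. *Alas2* (chrX:147004993-147005052) and *Gata1* (chrX:7536392-7536451) are on chromosome X, and *Klf1* is on chromosome 8 (chr8:87427100-87427159). The accessions of 8 of the 9 genes matched the RefSeq gene table of GRCm38.p6, each under the same symbol.

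The array reads each globin through probes of 60 bases. Shown are the probe of *Hbb-y*, that of *Hba-x*, and the second probe of *Hba-a1* (chr11:32183955-32184014, plus strand), whose ratio on array 1 was the lowest of all member probes; their GC contents are 45.0%, 53.3% and 55.0%.
Hbb-y probe: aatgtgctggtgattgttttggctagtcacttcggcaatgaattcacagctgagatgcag
Hba-x probe: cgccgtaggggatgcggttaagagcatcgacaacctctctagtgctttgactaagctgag
Hba-a1 second probe: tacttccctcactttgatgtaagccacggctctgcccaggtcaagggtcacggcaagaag

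The promoters of the 9 genes, which were chosen by name as red cell genes, were also searched for short motifs. The search used no signal values, and why 1 sample was highest was not tested. RefSeq promoter entries (GRCm38.p6) were matched for 6 of the 9 genes. In the 120 bases before the start, both strands were searched for GATAA, the core bound by GATA factors, CACCC, the core bound by factors of the Klf family, CCAAT and TATAA; capitals mark the matches, and no match of 1 motif overlapped that of another. CACCC was present in 6 of 6, against a fraction of 0.317 of 32851 promoter entries over the same length. GATAA was in 3 of 6 (a fraction of 0.105 of all entries), CCAAT in 3 of 6 (0.213) and TATAA in 2 of 6 (0.118). The 3 globin promoters and that of *Alas2*, which has 3 adjoining CACCC matches on the other strand, are shown, at chr7:103853208-103853327 (minus strand), chr11:32276480-32276599, chr11:32283552-32283671 and chrX:150547297-150547416 (plus strand) in GRCm38.p6. A match is a match of letters and no measurement of binding.
Hbb-y promoter: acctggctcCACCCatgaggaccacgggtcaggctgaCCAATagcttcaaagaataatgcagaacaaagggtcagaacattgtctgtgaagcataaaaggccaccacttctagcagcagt
Hba-x promoter: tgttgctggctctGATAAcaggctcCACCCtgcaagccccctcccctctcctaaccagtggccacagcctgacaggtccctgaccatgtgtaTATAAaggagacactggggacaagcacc
Hba-a1 promoter: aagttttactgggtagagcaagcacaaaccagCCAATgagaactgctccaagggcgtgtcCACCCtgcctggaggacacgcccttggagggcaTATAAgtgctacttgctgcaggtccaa
Alas2 promoter: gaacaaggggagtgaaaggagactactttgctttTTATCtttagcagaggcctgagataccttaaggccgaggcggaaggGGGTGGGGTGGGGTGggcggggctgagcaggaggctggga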

How the data were processed

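Wild type (Cy3) and *Plzf* lu/lu (Cy5) E10.5 brain RNA was measured on 2 arrays of 1 slide. The authors processed the scans with Feature Extraction 10.7.3.1, and the deposited values are spot intensity after background subtraction and rank-consistency LOWESS dye normalization within each array, with the deposited log10 ratio (Cy5 over Cy3). Another deposited file has it as log2. No normalization was made between the arrays.

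Control spots and outlier spots (137 and 126, none of the 9 genes) were left out, log2 signals were averaged over the spots of a probe, and a gene was read at its brightest probe. No spot was saturated. Ratios were fitted with limma 3.58.1 in R 4.3.3 (intercept, eBayes) with Benjamini-Hochberg adjustment over 10600 genes; the smallest p that an exact sign-flip test can give with 2 arrays is 0.5. The signal-to-noise ratio is the mean signal less the median background over the SD of the background pixels. Tables and figures were made with Python 3.11.15 (pandas 2.3.3, numpy 2.4.6, matplotlib 3.10.9) and R (data.table, version 1.17.8). The code of the fit was checked on simulated ratios, which held no dye, probe or sample effects and so do not speak for this design.

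The 9 genes and the lists (6 of red cell genes, 5 of markers) were chosen with earlier results of these data known. Genes named are the 9 genes, the 3 brightest tested genes of each list, the 10 genes nearest in profile to the embryonic globins, and those said to be chosen otherwise. A gene that this rule selects is not reported here. Alternatives were normexp (offset 50) with loess or median centring, the deposited log2 table, other signal rules, the probes of a gene averaged or on their own, removal of the GC trend (lowess, span 0.67), eBayes with trend, channels without the pairing by array, 1.5-fold, each array alone, quantile normalization, no centring, signal without dye normalization, and other denominators of the share.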

Additional observations from a re-analysis of the deposited data

How the results depend on the processing

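For 5 of the 6 genes tested, each read at its brightest probe, the arrays differed in direction. Taken alone, they gave mean log2 ratios from -0.80 to 0.52 for *Hbb-y*, -0.85 to 0.12 for *Hbb-bh1*, -1.29 to 0.026 for *Hba-x*, -0.90 to 0.33 for *Hba-a1* and -0.93 to 0.40 for *Ahsp*. *Alas2* was lower on each, from -1.20 to -0.15. The second *Hba-a1* probe was lower on both arrays (-1.60 and -0.06), with a mean of -0.83 (limma adjusted p = 0.166), and so was the dim second *Hbb-bh1* probe (-0.84 and -0.38), which missed the signal rule. The median of the 6 genes was -0.32, from -0.91 to 0.22 with each array alone and -0.05 with normexp and median centring. Beyond 1.3-fold, 6 of 6 genes were lower and 0 higher on array 1 alone, and 0 lower and 2 higher on array 2 alone. With normexp and median centring 4 were lower on array 1 and 4 higher on array 2, and with normexp and loess 6 and 3. These are values without a test. Median centring of normexp-corrected signals turned the mean to 0.34 for *Hbb-y*, 0.16 for *Hbb-bh1* and 0.18 for *Hba-a1*, and the cause was not tested. The count beyond 1.3-fold on both arrays was 0 in each direction with both normexp settings, the deposited log2 table and the other signal rules. It was also 0 with the probes averaged or on their own, the GC trend removed and 1.5-fold. With 1 array left out it became the count on the other array, as given above. Under the remaining alternatives it was not run. Adjusted p-values from limma over the alternatives that kept both arrays ran from 0.0801 to 0.601 for *Alas2* and from 0.409 to 0.916 for *Hbb-y*. Without the replicate block, that is, with the channels not paired by array, the means were as before (*Hbb-y* -0.14, *Alas2* -0.67), and limma adjusted p-values were 0.845 and 0.429.

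With all gene spots as the denominator, where the spots of *Hba-a1* count singly, the share of the 9 genes was 1.49% and 0.703% on array 1 and 0.519% and 0.614% on array 2 for wild type and *Plzf* lu/lu. The log2 quotient of embryonic to adult-type globins was 0.83 and 1.045 on array 1 and 1.16 and 1.21 on array 2 with all probes summed. With *Hba-a2*, *Hbb-b2* and *Hbb-bt* added, chosen after seeing the data, it was 0.39 and 0.44, and 0.61 and 0.54. The *Hba-a2* probe shares a run of 59 bases with the brighter *Hba-a1* probe, so this sum may count the same transcripts 2 times. The difference between the wild type samples, a median of 1.41 on the log2 scale, was between 1.41 and 1.46 with quantile normalization, without centring and without dye normalization. *Hbb-b1*, *Klf1* and *Gata1* missed the signal minimum of 200, with lowest signals of 116.4, 87.6 and 180.4.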

Other observations

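Beyond the tested genes, a gene of the red cell membrane gave a wide gap between the wild type samples, though it missed the signal rule. *Rhd*, of the Rh complex, had signals of 941 in wild type and 323 in *Plzf* lu/lu on array 1, and 171 and 226 on array 2, a quotient of 5.39 between the wild type samples and of 1.38 between the *Plzf* lu/lu samples. The erythropoietin receptor gene *Epor* was tested and had 685 and 326 on array 1 and 236 and 230.0 on array 2, with log2 ratios of -1.07 and -0.04 (limma adjusted p = 0.19). These genes were picked after their values were seen.

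Regulators linked to the switch between globin genes were also measured. *Bcl11a*, a repressor of embryonic globin genes that is also used in neurons, had signals of 713 and 716 on array 1 and 430.5 and 733.5 on array 2, and *Sox6* had 432 and 498 on array 1 and 357 and 460 on array 2, in wild type and *Plzf* lu/lu. Their log2 ratios were 0.0061 and 0.77, and 0.21 and 0.37. The quotient of array 1 to array 2 was 1.63 in wild type and 0.944 in *Plzf* lu/lu for *Bcl11a*, and 1.19 and 1.05 for *Sox6*.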
